A study of Mus musculus with 20 samples.

Results

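The genes described here are 10 members of the matrix metalloproteinase (Mmp) and tissue inhibitor of metalloproteinases (Timp) families, out of 54532 genes in a table of read counts from mouse kidney tumors and normal kidneys. Mmp27 was chosen because it was among the genes with the largest rise in tumors, and Mmp2, Mmp7, Mmp9, Mmp10, Mmp12, Mmp13, Mmp14, Timp1 and Timp3 were named with it. The contrast of tumors with normal kidneys therefore chose the set, and for these 10 genes it is given as a description, with no test. All 10 members passed the filter on low counts, which a gene high in tumors could pass through the tumors alone.

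RNA was sequenced from 10 tumors and 10 normal kidney regions of 10 C57BL/6 mice with the genotype LSL-Cas9/+; Pax8 Cre/+. An adeno-associated virus (AAV) carrying sgRNAs against Vhl, Pbrm1, Keap1 and Tsc1, and no Cre of its own, was injected into the kidney. Cre came from the Pax8 promoter, so Cas9 was limited to cells that express Pax8, a group to which the epithelium of renal tubules belongs. The normal kidney regions came from the same mice and carried the same alleles as the tumors. By the study's methods, male and female mice were injected as young adults. Whether these regions had taken up the virus is not given in the sources used here. Each library is 1 piece of tissue. Both groups carry the numbers 1 to 10, but nothing states that a number marks a mouse, and the main tests leave the numbers out. Yet 8 of 10 tumors deviated from their group most like the normal kidney of the same number, so pairing by mouse is likely. The p-values measure the spread between these pieces of tissue as if they were unpaired.

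Matrix metalloproteinases are zinc-dependent proteases that are made as inactive precursors and, once activated, cleave collagens, laminins, fibronectin and other proteins around cells. They are grouped by what they cut best: collagenases (Mmp8, Mmp13), gelatinases (Mmp2, Mmp9), stromelysins (Mmp3, Mmp10), the matrilysin Mmp7, the macrophage elastase Mmp12 and membrane-anchored enzymes such as Mmp14, which activates the precursor of Mmp2. Timps bind the active site of these enzymes and block it, and Timp3 is held in the matrix. In the kidney, Mmp7 is known as a gene of injured tubules, while Mmp27 is among the least studied members of the family.

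Total counts ranged from 14737516 to 26679704 per library. Values are given as CPM, the counts of a gene divided by the scaled library total after scaling by TMM factors, or as RPKM, which also divides by the exon length of the gene in kilobases, where genes are compared with each other. The scaling factor of normal kidney 9 was 0.749. The remaining normal kidneys had factors of 1.03 to 1.14, and the tumors 0.882 to 1.10. The proximal tubule gene Lrp2 was present in both groups, at 449 to 4862 CPM in tumors and 393 to 3430 CPM in the normal kidneys, as was Pax8 at 113 to 203 and 91.5 to 197 CPM. Umod, Slc12a3 and Aqp2, genes of the more distal nephron, reached at most 5.45, 7.73 and 0.298 CPM in tumors, whereas their lowest values in normal kidneys were 3412, 293 and 83.2 CPM. Of the sgRNA targets, Vhl had medians of 17.9 CPM in tumors and 25.8 CPM in the normal kidneys, Pbrm1 50.8 and 66.6, Tsc1 29.8 and 55.4, and Keap1 82.1 and 46.3. Tumor 7 stood apart: its fibroblast markers summed to 8181 CPM against 149 to 653 CPM in the other tumors, its neutrophil markers to 452 against 1.88 to 29.4 CPM, and its proximal tubule markers to 1001 against 2828 to 8697 CPM. Values resting on tumor 7 are therefore given with and without it.

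Of the 10 members, 5 lie in a cluster of 10 Mmp genes on chromosome 9, which spans 427072 bases from 7272514 to 7699585 by the coordinates of the count table (mm10). In order they are Mmp13, Mmp12, Mmp1b, Mmp3, Mmp1a, Mmp10, Mmp8, Mmp27, Mmp20 and Mmp7, with 9 of the 10 on the plus strand. Mmp27 begins 2910 bases after the end of Mmp8. Because 4 of the 5 members in the cluster, all but Mmp7, had higher medians in tumors, the 100 bases before the start of each gene are given here 5′ to 3′ on the gene's own strand, from the RefSeq promoter table (GRCm38.p6). Capitals mark TGANTCA, the letters bound by AP-1 factors (the Fos and Jun families), and TATAAA, the letters of a TATA box. Mmp12 and Mmp7 have more than 1 RefSeq start, and the start whose window holds TGANTCA is shown.
Mmp13, chr9:7272414-7272513: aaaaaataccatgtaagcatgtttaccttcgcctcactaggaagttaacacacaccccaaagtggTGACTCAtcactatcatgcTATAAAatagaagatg
Mmp12, chr9:7347274-7347373: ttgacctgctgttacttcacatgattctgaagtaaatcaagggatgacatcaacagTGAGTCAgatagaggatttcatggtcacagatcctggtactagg
Mmp1b, chr9:7388027-7388126, minus strand: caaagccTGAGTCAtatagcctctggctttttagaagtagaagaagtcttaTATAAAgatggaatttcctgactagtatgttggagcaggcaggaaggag
Mmp3, chr9:7445722-7445821: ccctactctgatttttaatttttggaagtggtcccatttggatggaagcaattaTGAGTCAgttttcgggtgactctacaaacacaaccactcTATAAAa
Mmp1a, chr9:7464041-7464140: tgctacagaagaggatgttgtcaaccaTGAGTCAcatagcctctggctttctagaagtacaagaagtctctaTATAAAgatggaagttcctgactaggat
Mmp10, chr9:7502242-7502341: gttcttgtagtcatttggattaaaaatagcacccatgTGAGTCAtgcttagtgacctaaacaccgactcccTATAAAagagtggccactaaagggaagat
Mmp8, chr9:7558329-7558428: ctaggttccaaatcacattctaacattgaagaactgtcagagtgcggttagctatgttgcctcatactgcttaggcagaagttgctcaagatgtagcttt
Mmp27, chr9:7571296-7571395: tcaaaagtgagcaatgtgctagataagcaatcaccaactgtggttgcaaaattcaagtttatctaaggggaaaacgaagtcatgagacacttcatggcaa
Mmp20, chr9:7628131-7628230: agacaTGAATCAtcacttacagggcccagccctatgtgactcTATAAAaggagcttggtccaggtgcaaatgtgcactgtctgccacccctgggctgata
Mmp7, chr9:7691990-7692089: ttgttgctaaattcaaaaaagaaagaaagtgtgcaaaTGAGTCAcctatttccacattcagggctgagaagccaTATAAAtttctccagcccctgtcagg

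The AP-1 letters were found within the 300-base windows (250 bases before to 50 after the start) of 8 of the 10 cluster genes, and the TATA box in the same 8. The 2 genes with neither are the neighbours Mmp8 and Mmp27. A gene was counted if any of its windows held the letters. The 10 genes have 12 windows, and the other windows of Mmp12 and Mmp7 held neither. Over all 32851 promoter windows, counted singly, 7.81% hold the AP-1 letters on either strand. On the gene's strand, 8.32% hold the TATA box. The AP-1 matches began between 35 bases before the start in Mmp13 and 95 bases before it in Mmp20. In Mmp12 the TATA match lies 4 bases after the annotated start and so outside the stretch printed. Among the 12 other Mmp and Timp genes with a window, 0 hold the AP-1 letters. AGGAAG, the letters read by ETS factors, stands on either strand of 35.4% of all windows and was not found in that of Mmp27. In the window of Mmp27 the sole match to the letters searched was to ACGTG, the core of hypoxia response elements, 38 bases after the start on the opposite strand. These 5 letters are found in 19.6% of all windows. Among the members they also stood in windows of Mmp7, Mmp14 and Timp1, there before the start. A match describes letters and says nothing of whether a factor bound. Windows of 8 of the 10 members were in the table, and Mmp2 and Mmp9 are not analysed here in this respect.

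**Figure D1:**
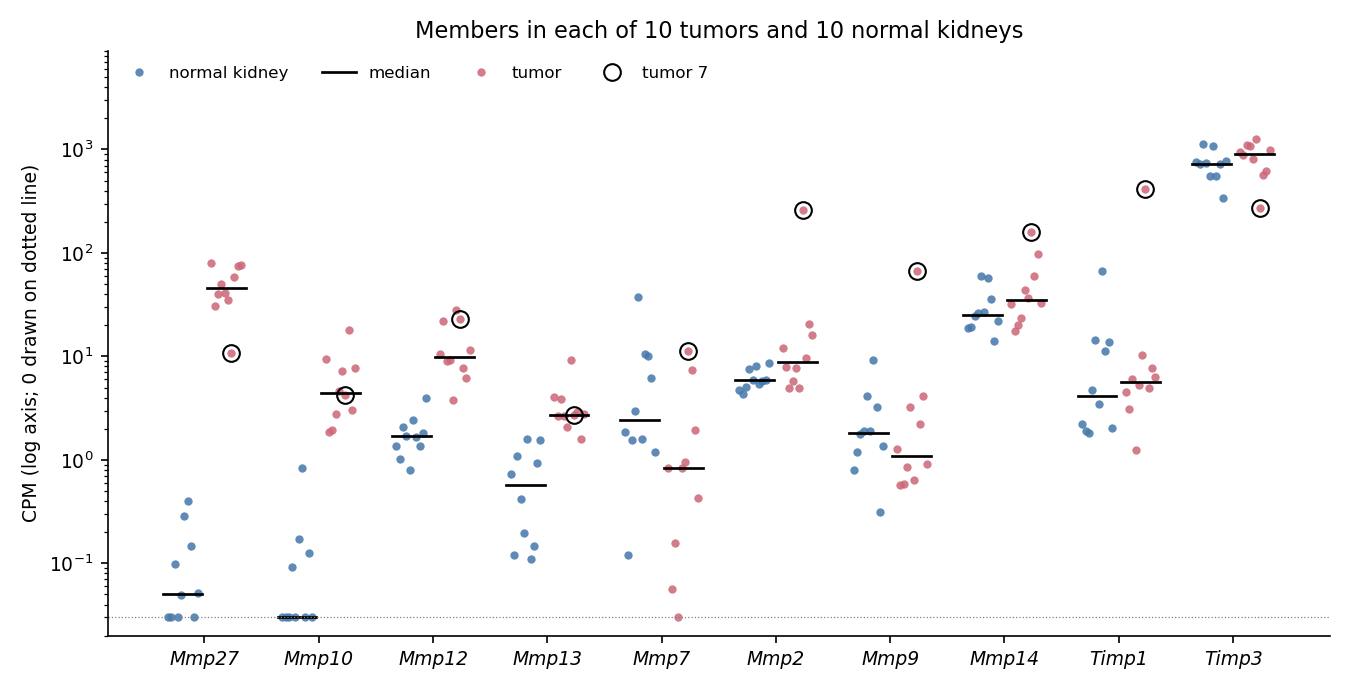
Each point is 1 library, with normal kidneys at the left and tumors at the right of each gene, CPM on a log axis, a bar at the median and a ring around tumor 7. All 10 tumors lie above all 10 normal kidneys for Mmp27 and Mmp10, whereas for Mmp2, Mmp9 and Timp1 tumor 7 lies far above the other tumors.

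Mmp27 (chr9:7571396-7581885) had almost no reads in normal kidney and, by median, the highest level per length of any Mmp gene in tumors, though not in tumor 7. In tumors it ranged from 10.8 CPM in tumor 7 through a median of 45.7 to 79.7 CPM in tumor 1, and the other tumors began at 31.0 CPM. In normal kidneys it ranged from 0, in 4 of 10 libraries, through a median of 0.0507 to 0.401 CPM in normal kidney 7. The groups did not overlap. The normal kidneys held 23 reads of Mmp27 in all and the tumors 10225, a ratio of 430 after division by TMM-scaled library totals. Its exact 95% interval for counting error alone was 287 to 679. The fitted log2 fold change was 8.71 (SE 0.53) and lay between 8.55 and 9.34 with any 1 library left out. In bulk tissue, more cells that make an RNA and more RNA per cell cannot be told apart.

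Mmp10, or stromelysin 2, which cleaves proteoglycans and fibronectin and activates collagenases, was the other member with no overlap. Tumors ranged from 1.88 through a median of 4.43 to 17.9 CPM in tumor 8, and 6 of 10 normal kidneys had no read of it. Among normal kidneys the highest value, 0.838 CPM in normal kidney 7, came from 23 of the 30 reads in the group. The ratio after division by TMM-scaled library totals was 38.7. Its exact 95% interval for counting error alone was 26.9 to 57.6, which leaves out the spread between kidneys. The log2 fold change was 5.41 (SE 0.75), or 6.99 without normal kidney 7. With a median of 2.57 RPKM, Mmp10 stood well below the 20.7 RPKM of Mmp27.

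Mmp12 and Mmp13, at the start of the cluster, were also higher in tumors, and for each of them 9 of 10 tumors lay above every normal kidney. Mmp12, the elastase of macrophages, ranged from 3.81 through 9.90 to 27.9 CPM in tumors and from 0.792 through 1.69 to 3.95 CPM in the normal kidneys, with a log2 fold change of 2.84 (SE 0.36). Mmp13, the main interstitial collagenase of rodents, ranged from 1.59 through 2.74 to 9.15 CPM in tumors and from 0.109 through 0.574 to 1.61 CPM in the normal kidneys, with a log2 fold change of 2.32 (SE 0.47). Both were highest in tumor 6. In the count table the end of Mmp12 overlaps Mmp1b on the opposite strand by 1261 bases, but Mmp1b had no count in any library. Markers of macrophages, the cells after which Mmp12 is named, rose in 6 of 10 cases, and their sum was 295 to 1625 CPM in tumors against 155 to 510 CPM in normal kidneys. Across the 10 tumors Mmp12 and the mean of these markers gave r = 0.23 (permutation p = 0.519, adjusted p = 0.633), rho = 0.10 (permutation p = 0.784, adjusted p = 0.884) and r = 0.11 without the 2 farthest tumors.

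Mmp7 was the one member of the cluster with a lower median in tumors. Tumors ranged from 0 in tumor 4 through 0.833 to 11.4 CPM in tumor 7, and normal kidneys from 0.120 through 2.43 to 37.5 CPM in normal kidney 5. The groups overlapped over most of their range, since 0 tumors lay above and 2 below every normal kidney. Normal kidneys 7 and 8 held 10.5 and 10.2 CPM, and with normal kidney 5 they also had the most RNA of injured tubule markers. The log2 fold change was -1.62 (SE 0.91), -2.41 with tumor 7 left out and -0.75 with normal kidney 5 left out.

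The gelatinase Mmp2 and its activator Mmp14, both known from stromal cells, were spread differently. Which cells held their RNA here was not tested. Mmp2 had similar medians of 8.76 CPM in tumors and 5.87 CPM in the normal kidneys, but reached 259 CPM in tumor 7, which was 12.7 times the next highest tumor. Its lowest values were 4.98 and 4.31 CPM, its highest in normal kidneys was 8.73 CPM, and 5 of 10 tumors lay above all normal kidneys. Its log2 fold change of 2.50 (SE 0.69) became 0.70 without tumor 7. Mmp14, the membrane enzyme that starts pericellular collagen breakdown, ranged from 17.6 through 35.0 to 160.3 CPM in tumors, highest in tumor 7, and from 14.2 through 25.4 to 60.1 CPM in normal kidneys. The groups overlapped, and its log2 fold change was 0.78 (SE 0.38) with all tumors and 0.41 without tumor 7.

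Mmp9, the gelatinase of neutrophils and macrophages, was low in most tumors. Tumors ranged from 0.569 through 1.10 to 66.9 CPM in tumor 7, where the next highest value was 4.11 CPM, and normal kidneys from 0.314 through 1.83 to 9.29 CPM in normal kidney 7. Its median was thus lower in tumors while its log2 fold change was 1.65 (SE 0.87). Without tumor 7 that value was -0.70, and with DESeq2, which replaces outlying counts, it was -0.70 as well.

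Timp1, an inducible inhibitor that tissues make after injury, was likewise far higher in tumor 7 than in any other tumor, but its median was higher in tumors. Tumors ranged from 1.25 through 5.67 to 413 CPM in tumor 7, which was 40.4 times the next highest tumor, and normal kidneys from 1.82 through 4.12 to 67.5 CPM in normal kidney 7. The log2 fold change was 1.90 (SE 1.03) with all tumors and -1.18 without tumor 7. Timp3, the inhibitor bound to matrix, was by far the most abundant member in both groups. It ranged from 273 CPM in tumor 7 through 907 to 1272 CPM in tumors and from 342 CPM in normal kidney 9 through 731 to 1132 CPM in the normal kidneys, with a log2 fold change of 0.21 (SE 0.23). In tumor 7, then, Timp1 was highest and Timp3 lowest.

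Among the members, 5 of 10 lay past an adjusted p of 0.05 in the direction of tumors and 0 in that of normal kidneys, where 23.6% and 23.8% of the 15354 genes tested did so, 47.5% in either direction. For 2 of 10 every tumor lay above every normal kidney, against 5.87% of all genes, and for 0 of 10 below, against 4.74%. The median log2 fold change of the members was 2.11, beside -0.02 over all genes. As this contrast chose the set, nothing is read from these shares. The median fell to 0.55 when tumor 7 was left out.

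**Figure D2:**
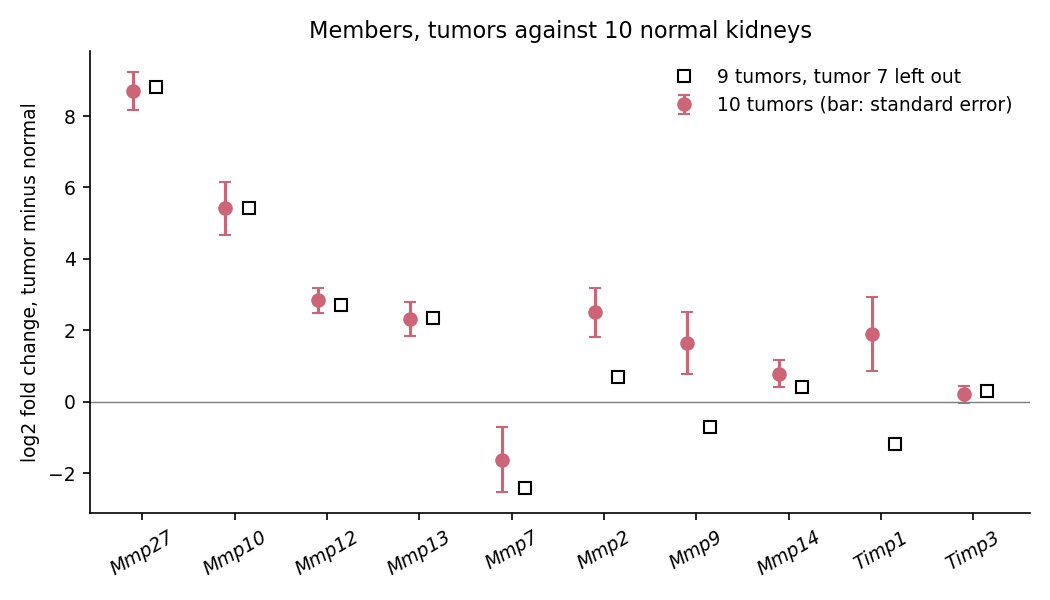
Log2 fold change of each member, tumors minus 10 normal kidneys, from the fit across all genes: filled points with standard errors use 10 tumors, open squares 9 tumors without tumor 7. Mmp27, Mmp10, Mmp12 and Mmp13 stay near their values of 8.71, 5.41, 2.84 and 2.32, while Mmp9 and Timp1 change sign.

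Per length, the order in tumors by median RPKM was Timp3 (111), Mmp27 (20.7), Timp1 (6.39), Mmp14 (5.88), Mmp2 (2.60), Mmp10 (2.57), Mmp12 (1.37), Mmp13 (1.03), Mmp7 (0.780) and Mmp9 (0.310). In normal kidneys it was Timp3 (89.7), Timp1 (4.64), Mmp14 (4.26), Mmp7 (2.27), Mmp2 (1.74), Mmp9 (0.517), Mmp12 (0.234), Mmp13 (0.215), Mmp27 (0.0229) and Mmp10 (0). Mmp27 thus stood second of 10 in tumors and ninth in normal kidneys. The ranges of all neighbours in either order overlapped. Within the same library, however, Timp3 was above Mmp27 in 10 of 10 tumors and Mmp27 above Timp1 in 9 of 10.

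Of the summed RPKM of all Mmp genes, Mmp27 made up a median of 44.5% in tumors, from 1.75% in tumor 7 to 57.8% in tumor 4, and a median of 0.0911% in normal kidneys, where its highest share was 0.649%. Mmp14 made up 9.91% in tumors (median) and 22.2% in normal kidneys, and Mmp7 1.46% and 12.8%. In normal kidney 5 Mmp7 alone took 60.9%. In tumor 7 the main share was that of Mmp3 at 33.4%, followed by Mmp2 at 27.6%. The summed RPKM of Timp genes was 1.24 to 4.22 times that of Mmp genes in tumors (median 2.58) and 1.75 to 9.54 times in normal kidneys (median 6.77), so the ranges overlapped. Timp3 made up a median of 83.3% of the Timp sum in tumors and 76.8% in normal kidneys. In tumor 7 Timp3 held 5.88% of it and Timp1 81.5%.

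**Figure D3:**
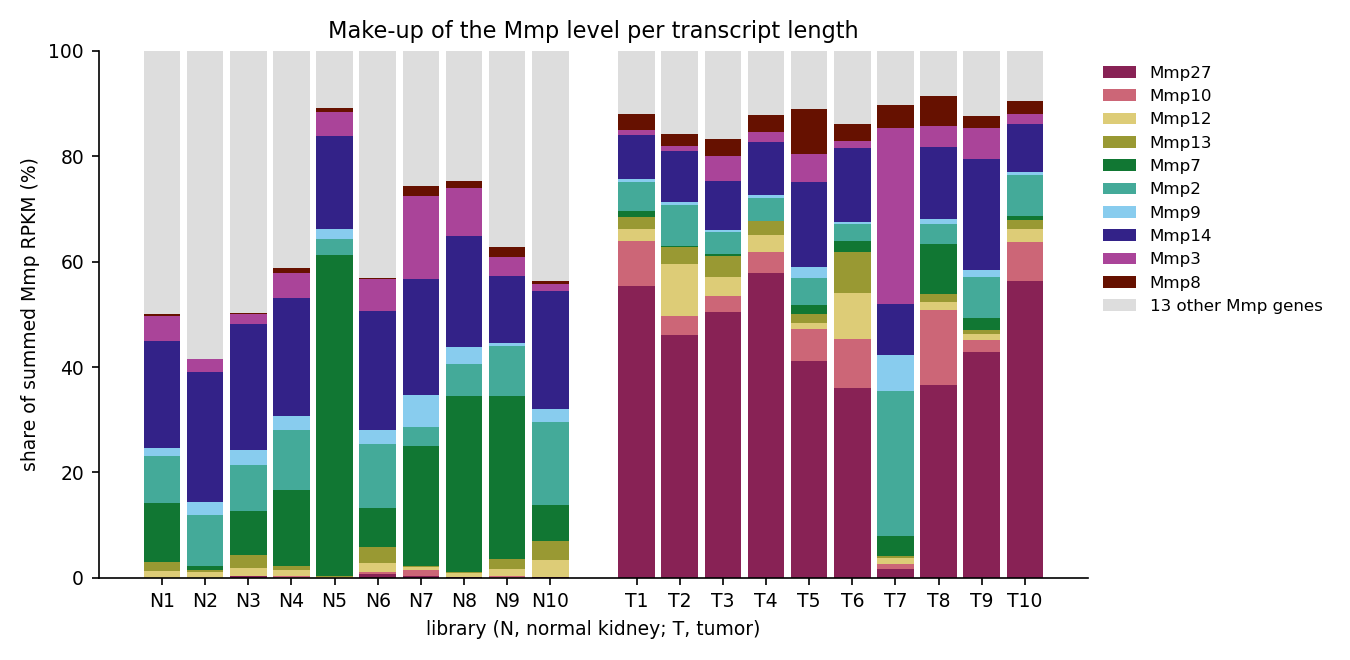
Stacked bars give, for each library, the share of each gene in the summed RPKM of all Mmp genes, in percent (N, normal kidney; T, tumor). Mmp27 fills 35.9% to 57.8% of the bar in the tumors other than tumor 7 and under 1% in all normal kidneys, while Mmp3 and Mmp2 fill most of tumor 7.

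The rest of the family was tested, since the set did not name these genes. Of 17 other Mmp and Timp genes, 10 passed the filter, 2 rose, 1 fell and 7 did not pass. Mmp8, a collagenase of neutrophils and the neighbour of Mmp27, rose by 3.59 on the log2 scale (SE 0.68, edgeR adjusted p = 0.000183). It ranged from 1.59 through 4.02 to 30.2 CPM in tumors and from 0 through 0.383 to 1.93 CPM in the normal kidneys, so that 9 of 10 tumors lay above all normal kidneys. The call on Mmp8 held with each library left out, at log2 fold changes of 2.96 to 4.03. Mmp3, or stromelysin 1, rose by 2.70 (SE 1.01, edgeR adjusted p = 0.0322). Tumor 7 held 168 CPM of it and the next highest tumor 8.27 CPM. Without tumor 7 its log2 fold change was 0.01 (edgeR adjusted p = 0.989), and without normal kidney 1, 2, 3 or 10 its adjusted p also passed 0.05. With libraries paired by their numbers, the call on Mmp3 was lost as well, at 0.94 (edgeR adjusted p = 0.149). Mmp28 fell, with a log2 fold change of -0.83 (SE 0.31, edgeR adjusted p = 0.0313). That call was lost without normal kidney 6 or without tumor 1, 4, 5, 6, 8 or 9, at adjusted p up to 0.0645.

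The other family genes tested gave log2 fold changes of -0.78 for Mmp17, -0.04 for Mmp23, -0.01 for Timp2, 0.14 for Timp4, 0.18 for Mmp11, 0.52 for Mmp15 and 0.67 for Mmp19, and all of these missed the threshold. Without tumor 7 the values were -0.52 for Mmp19, -0.86 for Timp4, -0.06 for Mmp11 and -0.61 for Mmp23, which also missed it, so the sign of the first 3 rested on that tumor. Without it, Mmp17 and Timp2, the inhibitor that helps Mmp14 activate Mmp2, passed it, at -1.45 and -0.43 (edgeR adjusted p = 0.000235 and 0.0273). In tumor 7 Timp2 was at 273 CPM and in the other tumors at most at 99.1 CPM. Of the genes too low to test, Mmp20 reached 2.09 CPM in tumors and 0.495 CPM in the normal kidneys, and 8 of 10 tumors lay above all normal kidneys. Mmp1a had 22 reads in all, each in a tumor. Mmp16, Mmp21, Mmp24 and Mmp25 had medians of at most 0.644 CPM in either group. Mmp16 reached 0.213 CPM in tumors and 0.688 CPM in the normal kidneys, and 9 of 10 tumors lay below all normal kidneys. For Mmp24, 5 of 10 tumors lay above all normal kidneys.

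Genes around the cluster did not move in 1 direction. Within 500 kb of its ends, the cluster included, lie 18 protein-coding or Mmp genes, of which 13 are not members. Of the 10 of these that could be tested, 5 rose and 4 fell, against 23.6% and 23.8% of all genes. Mmp3 and Mmp8, which are among the rises, lie inside the cluster. Beside Mmp3 and Mmp8, the rises were small: 0.54 for Tmem123 (SE 0.15, edgeR adjusted p = 0.0055), 0.56 for Birc2 (SE 0.13, edgeR adjusted p = 0.00122) and 0.78 for Birc3 (SE 0.19, edgeR adjusted p = 0.002). Birc2 and Birc3 encode inhibitors of apoptosis. The log2 fold changes of genes that fell were -0.39 for Dync2h1 (edgeR adjusted p = 0.0436), -0.59 for Yap1, the effector of Hippo signalling, -2.14 for Cfap300 and -2.36 for Cep126 (edgeR adjusted p between 4.1e-08 and 0.000931). Dync2h1, Cfap300 and Cep126 are genes of cilia and their base, and every tumor lay below every normal kidney for the last 2. The call on Dync2h1 was lost with any of 15 libraries left out, at adjusted p up to 0.0841, and Dcun1d5 did not pass at 0.04.

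**Figure D4:**
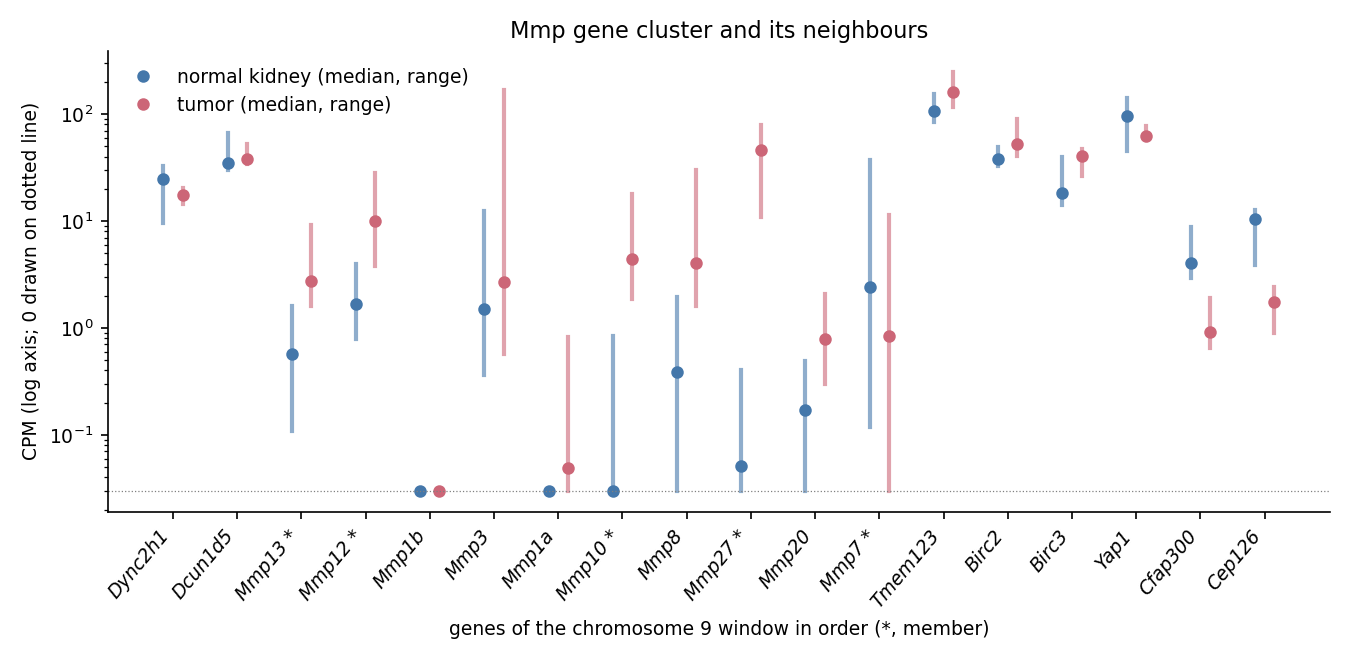
Median (point) and range (line) of CPM in 10 tumors and 10 normal kidneys for the genes of the chromosome 9 window in their order along the chromosome, on a log axis, with members starred. Tumors stand highest above normal kidneys at Mmp27, with medians of 45.7 and 0.0507 CPM, whereas the genes after Mmp7 have log2 fold changes between -2.36 and 0.78.

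Relations among libraries of the same group were not used to choose the genes. Each member was set against the mean log2 CPM of 5 marker lists, 100 relations over both groups, and against each other member, 90 relations. A relation was called where both Pearson's r and Spearman's rho passed an adjusted p under 0.05 by permutation. Against marker lists, 8 of 50 were called in tumors and 6 of 50 in normal kidneys, and 0 of these involved Mmp27, Mmp10, Mmp12 or Mmp13. For Mmp27 in tumors, r lay between -0.55 and 0.37 and rho between -0.05 and 0.22 over the 5 lists, and its adjusted p for r by permutation was 0.193 at the lowest. The sign of r with fibroblast markers rested on tumor 7: r was -0.55 over 10 tumors, 0.75 without tumor 7 (permutation p = 0.0112, not adjusted) and 0.80 without the 2 farthest tumors, while rho without tumor 7 was 0.63 (permutation p = 0.076, not adjusted).

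In tumors Mmp14 rose and fell with the markers of injured tubules (Havcr1, Lcn2, Krt20, Sox9, Vcam1, Clu and Cd24a), at r = 0.94 (adjusted p = 0.00133, permutation) and rho = 0.94 (adjusted p = 0.00375, permutation). It gave r = 0.93 without the 2 tumors farthest from the median of Mmp14, and r = 0.89 without tumor 7. Mmp14 also gave r = 0.82 with macrophage, 0.90 with neutrophil and 0.83 with fibroblast markers, none called because of rho, and a called r of -0.93 with proximal tubule markers. The study reports higher Vcam1 in a cluster of its tumor cells, and which cells held the injured tubule markers was not tested. Mmp9 went with the same markers at r = 0.89 (adjusted p = 0.00485, permutation) and rho = 0.83 (adjusted p = 0.0371, permutation), and at r = 0.75 without the 2 farthest tumors. That call was lost with any of 8 tumors left out. Mmp2 went with fibroblast markers at r = 0.98 (adjusted p = 0.00133, permutation) and rho = 0.83 (adjusted p = 0.0371, permutation). For Mmp2, r was 0.85 without the 2 farthest tumors and 0.90 without tumor 7, and the call was lost with any of 6 tumors left out. Mmp9 and Mmp14 went together at r = 0.90 (adjusted p = 0.00675, permutation) and rho = 0.90 (adjusted p = 0.0225, permutation), at r = 0.78 without the 2 farthest tumors, and the call was lost with any of 6 tumors left out.

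In normal kidneys Mmp7 and Timp1 went with neutrophil markers. These markers were low there. The 7 of them summed to 2.03 through a median of 6.18 to 45.6 CPM, and 4 passed the filter on low counts. For Mmp7, r was 0.88 (adjusted p = 0.00464, permutation) and rho 0.95 (adjusted p = 0.003, permutation), and r was 0.97 without the 2 farthest kidneys. For Timp1, r was 0.96 (adjusted p = 0.00157, permutation), rho 0.94 (adjusted p = 0.0036, permutation) and r without the 2 farthest kidneys 0.94. Both calls held with each normal kidney left out. Normal kidneys 5, 7, 8 and 9, at 0.67 to 2.02 mean log2 CPM of these markers, lay above the other 6, at -1.90 to -0.30, with a gap of 0.247 of the range, just under the limit of 0.25 used for separate sets. Within those 6, Mmp7 gave r = 0.79 (exact permutation p = 0.1) and rho = 0.83 (exact permutation p = 0.0583), and Timp1 r = 0.75 (exact permutation p = 0.0806) and rho = 0.77 (exact permutation p = 0.103), so neither passed. Mmp9 went with fibroblast markers at r = 0.87 (adjusted p = 0.00929, permutation) and rho = 0.93 (adjusted p = 0.00375, permutation), and at r = 0.61 without the 2 farthest kidneys.

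The other 10 of the 17 called relations lay over libraries that fell into separate sets, so each is given within the larger set alone, with exact permutation tests and adjustment over 120 such relations. Normal kidneys 5, 7 and 8 held injured tubule markers at 7.48 to 8.98 mean log2 CPM and the other 7 at 3.58 to 5.78. Within those 7, Mmp7 and these markers gave r = 0.93 (exact p = 0.00139, adjusted p = 0.0536) and rho = 0.96 (exact p = 0.00278, adjusted p = 0.0833). Timp1 gave r = 0.87 (exact p = 0.00337, adjusted p = 0.081) and rho = 0.89 (exact p = 0.0123, adjusted p = 0.295). Neither passed after adjustment. In tumors, Mmp7 was high in tumors 7 and 8, and within the other 8 it gave r = 0.96 with injured tubule markers (exact p = 0.000149, adjusted p = 0.00893) and rho = 0.93 (exact p = 0.00223, adjusted p = 0.0833). Within 8 normal kidneys, without numbers 5 and 7, Mmp9 and Mmp14 gave r = 0.97 (exact p = 2.48e-05, adjusted p = 0.00298) and rho = 1.00 (exact p = 4.96e-05, adjusted p = 0.00595), which passed on both. The remaining 6 did not pass within the larger set. Among them, Mmp9 and neutrophil markers gave r = 0.97 (adjusted p = 0.00133, permutation) and rho = 0.94 (adjusted p = 0.00367, permutation) over 10 tumors. That call held with each tumor left out, though these markers summed to a median of 4.38 CPM in tumors. Within 6 tumors r was 0.61 (exact p = 0.206, adjusted p = 0.617). With 6 libraries the exact p for rho cannot be under 0.00278, which adjusted to 0.0833 here. A set of 6 could therefore not pass on both, and its result decides nothing.

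**Figure D5:**
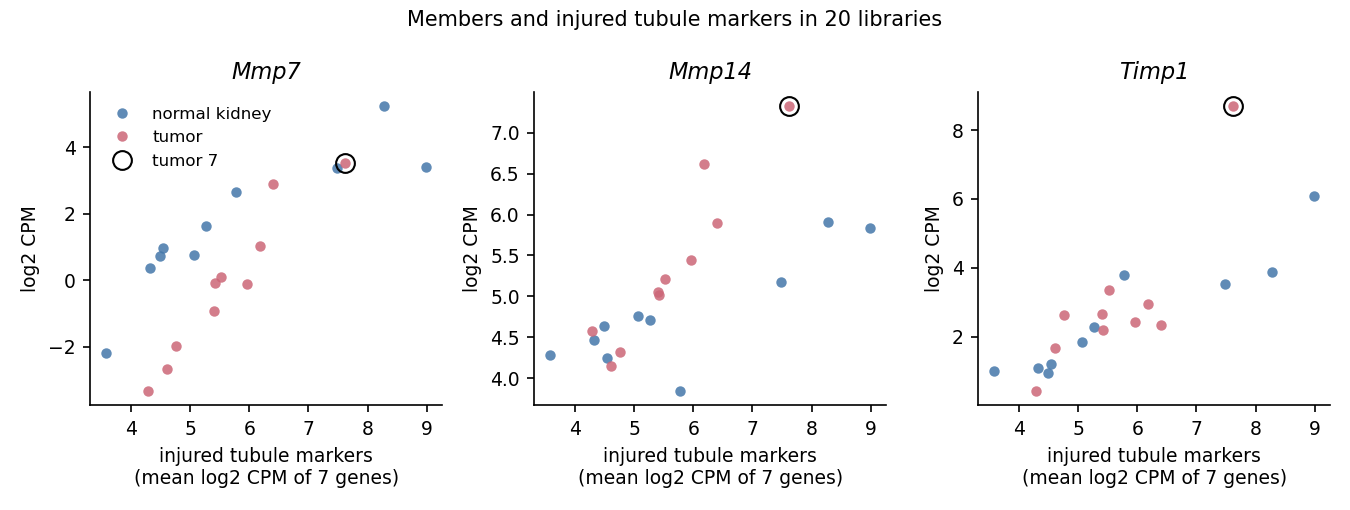
Log2 CPM of Mmp7, Mmp14 and Timp1 against the mean log2 CPM of 7 injured tubule markers, 1 point per library, with a ring around tumor 7. Normal kidneys 5, 7 and 8 lie at 7.48 and above on the marker axis, and tumor 7 lies above all libraries for Mmp14 and Timp1.

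The genes whose levels over the 10 tumors were most like that of Mmp27, among 13766 genes, were 9130019O22Rik and Hif3a (rho 0.94 for both), Kcnk5 (rho 0.93), and Fryl and Slc25a27 (rho 0.90 for both). Hif3a, a subunit of hypoxia-inducible factors, had medians of 57.6 CPM in tumors and 2.48 CPM in the normal kidneys. It was also lowest in tumor 7, at 20.4 CPM, and r between it and Mmp27 was 0.88 with and 0.81 without that tumor. The other 4 genes had medians of 2.13 to 143 CPM in tumors and 2.99 to 98.2 CPM in the normal kidneys. For Timp1 the 5 most alike were Tmem154 (rho 0.98), Gem (rho 0.96), Slc1a5, Hnrnpa1 and Vamp5 (rho 0.94 for each). These are the 5 highest of many values and are given as a description.

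Of 20 genes that activate metalloproteinases or hold them in check 19 were tested, 4 rose and 4 fell, close to the 23.6% and 23.8% of all genes that did so. Cd44, a hyaluronan receptor that can dock Mmp9 on the cell surface, rose by 3.22 on the log2 scale (SE 0.37, edgeR adjusted p = 4.4e-07), with 56.2 to 183 CPM in tumors and 3.11 to 31.0 CPM in the normal kidneys. Bsg, known as an inducer of metalloproteinases, rose by 1.83 (SE 0.19, edgeR adjusted p = 1.3e-07). The log2 fold changes of genes that fell were -3.87 for the proprotein convertase Pcsk6 (SE 0.57, edgeR adjusted p = 9.2e-06), -2.47 for the membrane protease St14 (SE 0.49, edgeR adjusted p = 0.000293) and -1.63 for Serpinf2, the inhibitor of plasmin (SE 0.41, edgeR adjusted p = 0.00251). For Cd44 and Bsg every tumor lay above, and for Pcsk6 and St14 below, every normal kidney. The median log2 fold change of the 19 was 0.13.

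Of 32 Adam, Adamts and meprin genes, which are related metalloproteases, 24 were tested, 8 rose and 3 fell, with a median log2 fold change of 0.27. The rises included the sheddases Adam10 (1.41) and Adam17 (0.77) and the matrix protease Adamts1 (1.49, SE 0.46, edgeR adjusted p = 0.0105), which lay at 320 to 616 CPM in tumors and 40.5 to 582 CPM in the normal kidneys. Adam23 (1.60, edgeR adjusted p = 0.034) and Adamts12 (1.52, edgeR adjusted p = 0.0132) also passed, but without tumor 7 their log2 fold changes were 0.55 and 0.93 and neither passed. The call on Adam23 was further lost without normal kidney 1, 2, 4, 8 or 9. Adamts16 was the largest fall, at a log2 fold change of -6.33 (SE 0.64, edgeR adjusted p = 6.4e-08), with at most 0.17 CPM in tumors and at least 0.547 CPM in the normal kidneys. It was followed by Adam22 at -2.21 (SE 0.38, edgeR adjusted p = 6.4e-05) and Adamts10 at -1.18 (SE 0.34, edgeR adjusted p = 0.00771). Without tumor 7, 5 genes of this list rose and 7 fell.

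Substrates of these enzymes were mostly higher in tumors. Of 27 genes for basement membrane proteins and other matrix proteins, all tested, 17 rose and 3 fell, and the median log2 fold change was 1.06. Fn1, encoding fibronectin, rose by 2.77 (SE 0.46, edgeR adjusted p = 4.5e-05), and ranged from 110 through 297 to 1027 CPM in tumors and from 18.2 through 37.8 to 165 CPM in the normal kidneys. The chains of type IV collagen, the main collagen of basement membranes, split. Col4a1 and Col4a2 rose by 2.20 (SE 0.28, edgeR adjusted p = 1.7e-06) and 1.87 (SE 0.26, edgeR adjusted p = 5.8e-06), each with every tumor above every normal kidney, and Col4a5 and Col4a6 by 1.05 and 1.40. Col4a3 and Col4a4, chains of the glomerular basement membrane, fell, at log2 fold changes of -2.59 (SE 0.29, edgeR adjusted p = 3.0e-07) and -2.57 (SE 0.29, edgeR adjusted p = 3.6e-07), with every tumor below every normal kidney. Beside this fall, podocyte markers fell in 4 of 5 cases, and their sum was 135 to 272 CPM in tumors and 121 to 980 CPM in the normal kidneys. Lamb2, of the laminins, had a log2 fold change of -0.69 (SE 0.25, edgeR adjusted p = 0.026), which without tumor 8 was no longer called (edgeR adjusted p = 0.051). Without tumor 7, 7 genes of the list fell in place of 3.

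Of 16 genes for AP-1, ETS and Runx factors, named AP-1 and ETS factors below, 3 rose and 5 fell, with a median log2 fold change of -0.19. The letters of AP-1 and ETS factors were searched in the windows above, and those of Runx1 and Runx2 were not. The rises were Fosl2 (1.47, SE 0.34, edgeR adjusted p = 0.00128), Elf3 (1.19, SE 0.29, edgeR adjusted p = 0.0018) and Jun (0.78, SE 0.30, edgeR adjusted p = 0.0408). The call on Jun was lost with any of 13 libraries left out, tumor 7 among them, at adjusted p up to 0.0745. Among the falls, the largest were the ETS factors Ehf (-4.82, SE 0.49, edgeR adjusted p = 6.2e-08), Etv1 (-3.38, SE 0.51, edgeR adjusted p = 1.3e-05) and Etv4 (-2.65, SE 0.75, edgeR adjusted p = 0.00626). Ehf is an epithelial factor. All 5 distal nephron markers fell as well, from a sum of at least 4003 CPM in normal kidneys to at most 8.73 CPM in tumors. Without normal kidney 5 the number of genes on this list that rose was 6, and without normal kidney 7 it was 5.

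Markers of other cells moved as follows beside the members. Besides macrophage, podocyte and distal nephron markers, proximal tubule markers fell in 3 of 8 cases and rose in 0. Of 7 neutrophil markers 4 could be tested and 1 rose, of 8 fibroblast markers 1 rose and 1 fell, of 7 endothelial markers 1 rose and 1 fell, of 7 injured tubule markers 1 rose and 3 fell, and of 5 T cell markers 2 could be tested and 1 fell. Injured tubule markers summed to 294 to 1940 CPM in tumors and 577 to 10406 CPM in the normal kidneys, highest in normal kidney 7, which also held the highest Timp1, Mmp9, Mmp10 and Mmp27 among normal kidneys. The part of these cells in the levels of the members was not tested.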

How the data were processed

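Frozen tissue was pulverized, RNA was extracted with Trizol, and poly(A)-selected libraries were made and sequenced by a company. The values are raw read counts per gene as the authors deposited them, on mm10 per the submitters' processing notes; the aligner, the counter and the use of strand are not given in the sources used here, so overlapping genes carry uncertain counts. The members and lists were chosen with earlier results of these data known. Counts were scaled with TMM factors and filtered at a count minimum of 10, which left 15354 genes, and tumors and normal kidneys were compared by the quasi-likelihood test of edgeR 4.0.16 in R 4.3.3 with all 20 libraries, no covariate and Benjamini-Hochberg adjustment over all genes tested. A call is an adjusted p under 0.05. The standard error is the fold change divided by the root of the F statistic. Log2 CPM used a prior count of 2. RPKM used the exon length of the count table. Correlations used 100000 permutations, or all of them where called exact, in Python 3.11.15. Libraries were taken as separate sets where a gap with at least 2 libraries on each side exceeded 0.25 of the range, a rule chosen after the data were seen. Genes named are the members, the other Mmp and Timp genes, the 3 largest rises and falls of each list past the threshold whose mean CPM reached 1 in either group, the genes within 500 kb of the cluster, and the 5 genes most like Mmp27 and Timp1; markers and genes named beyond these were chosen after their values were seen. A result that this rule names is not reported here. Alternatives were DESeq2 1.42.0, limma 3.58.1 (voom), 2 other scalings, no filter, a replicate block, a log2 limit of 1 with unadjusted p under 0.001, and each library left out; the test code was tried on simulated data. No 2 libraries of a group agreed within sampling noise. Intervals cover counting error only.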

Additional observations from a re-analysis of the deposited data

Results flagged for a closer look

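Over the members and the other family genes tested, 40 groups of 10 libraries were searched for a library far from all others, and 12 had one, of which 8 were tumor 7. In independent groups with a normal spread, chance alone gives about 1 in 20. These groups share the same libraries and some hold many values of 0, so that rate is no standard for them. In tumor 7 the values on the log2 CPM scale were 8.02 for Mmp2, 6.07 for Mmp9, 8.69 for Timp1, 7.39 for Mmp3, 2.85 for Mmp28 and 8.09 for Timp2, all above the other tumors, and 3.44 for Mmp27 and 8.10 for Timp3, both below them. The others were Mmp13 in tumor 6 (3.21, above the other tumors), Mmp15 in tumor 5 (0.81, below), Mmp10 in normal kidney 7 (-0.0924, above the other normal kidneys) and Mmp28 in normal kidney 9 (0.0571, below).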

How the results depend on the processing

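The scaling by DESeq2 size factors changed no count or direction beyond the limits used here, and with library totals the median over all genes moved by -0.12 on the log2 scale. With calls set at a log2 fold change beyond 1 and an unadjusted p under 0.001, 1359 genes were higher and 1571 lower, and the counts became 1 higher and 0 lower among other Mmp and Timp genes, 1 higher among Adam, Adamts and meprin genes, 3 lower among AP-1 and ETS factors, 1 higher and 2 lower in the chromosome 9 window, and 3 higher among markers. Other Mmp and Timp genes higher were 5 with no filter and 1 with DESeq2, limma-voom, the replicate block, or tumor 7 and normal kidney 9 both left out, an alternative chosen after seeing the data. Those lower were 2, 2, 2 and 3. Adam, Adamts and meprin genes lower were 5 with library totals, 5 with DESeq2, 7 with the replicate block and 8 with both libraries left out, which left 5 higher. Matrix genes lower were 6 with DESeq2, 5 with the replicate block and 7 with both left out, and AP-1 and ETS factors higher were 5 with limma-voom and 5 with the replicate block.

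The median log2 fold change of the members was 0.70 with DESeq2, 0.84 with limma-voom, 0.72 with the replicate block and 0.50 with both libraries left out, and the last 2 called 1 member lower. Signs turned for Mmp9 (-0.70 with DESeq2, -0.0517 with the replicate block, -0.70 without tumor 7, -0.84 with both left out), Timp1 (-0.20 with DESeq2, -1.18 without tumor 7, -1.17 with both left out) and Mmp3 (-0.0922 with both left out), beside Mmp19, Timp4 and Mmp11, which were not called. With 1 library left out, Mmp9 lay between -0.70 and 2.14 and Timp1 between -1.18 and 2.89, the upper values without normal kidney 7. The cause was not tested. No source states that the shared numbers mark mice, and the main tests ignore them, but the values make pairing likely. Of 10 same-numbered pairs, 9 deviated together at r over 0.1 (from -0.14 to 0.38 over all), and 8 of 10 tumors went best with their own number. Among the genes named, the replicate block lost the calls on Mmp3 (0.94, edgeR adjusted p = 0.149), Adam23 (0.64, edgeR adjusted p = 0.411) and Dync2h1 (-0.34, edgeR adjusted p = 0.101) and added one on Mmp17 (-1.26, edgeR adjusted p = 0.00672); it changed no other call on a gene named.

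With any 1 library left out, other Mmp and Timp genes higher were 1 to 3 and lower 0 to 3, Adam, Adamts and meprin genes higher 5 to 11 and lower 3 to 7, matrix genes lower 2 to 7, AP-1 and ETS factors higher 2 to 6, markers higher 7 to 13, members lower 0 to 1 and their median 0.55 to 2.34. Relations called in tumors were 3 to 8 with marker lists and 0 to 2 between members, and in normal kidneys 5 to 9 and 1 to 2. Mmp27 and Mmp10 rest on 23 and 30 reads in normal kidneys, so their fold changes are imprecise on that side.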
